A study of Mus musculus with 9 samples.

Results

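The nuclear receptors are transcription factors that are switched by small lipophilic ligands, and 38 genes were examined here: the receptors of the liver apart from those of the clock and of bile acid sensing, with 5 coactivators and 1 corepressor of the p160, PGC-1 and NCoR families. They were taken from the deposited gene table by their symbols, which gave 38 of its 33211 genes, and 36 of them were abundant enough to be tested among 14220 genes. RNA-seq had been performed on the livers of male wild-type C57BL/6 mice (C57BL6/J in the study's methods), an inbred laboratory strain, that were young adults when feeding began and were fed for several weeks with a high-fat diet (HFD). The labels set the groups apart by the storage of the diet alone, in a freezer for HFDfre (n = 5) and in a fridge for HFDfri (n = 4), so that both groups were on HFD and a low-fat reference was not analysed here. The comparison addresses whether the storage of the diet changes the abundance of these regulators in the liver.

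A nuclear receptor binds a short DNA element, often as a heterodimer with a retinoid X receptor (RXR), and its ligand decides whether coactivators or corepressors are held at the target gene. In the liver the peroxisome proliferator-activated receptor PPARα is known as a sensor of fatty acids, the liver X receptors (LXR) as sensors of oxysterols, and the constitutive androstane receptor (CAR) and the pregnane X receptor (PXR) as sensors of foreign compounds. HNF4α maintains hepatocyte identity. The activity of these proteins depends on ligands as much as on their amount, and the measurements here are of mRNA only.

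The library totals ran from 58614917 to 69353439 counts, and 15969 to 16561 genes were detected in each library. Levels are given as CPM, counts scaled to a common library total after TMM normalization. All 12 hepatocyte markers, such as albumin, were detected in every library, as the label of the tissue asks, and their summed level was 119488 ± 3692 CPM in HFDfre and 115253 ± 14359 CPM in HFDfri (SD). A ribosomal RNA-like locus took 0.466% to 11.1% of the counts, and the mitochondrial genes took 15.4% ± 3.03 in HFDfre and 10.6% ± 2.07 in HFDfri (two-sided exact permutation p = 0.0397, and 0.321 after adjustment over 9 measures). The summed levels of the marker genes of 7 cell types gave adjusted exact permutation p-values of 0.321 or more.

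Of the 36 tested members, 3 passed an adjusted p of 0.05 with edgeR's quasi-likelihood test, against 1.05% of all 14220 tested genes. Among them 1 was higher, against 0.499% of all tested genes, and 2 were lower, against 0.556%. Nr1i3, which encodes CAR, and Rxrg, which encodes RXRγ, were lower in HFDfri, and Nr2c2, which encodes the orphan receptor TR4, was higher. For Nr2c2 the difference was not seen once it was summed with the gene that overlaps it, as given with its values. An unadjusted p under 0.05 was found for 12 of the 36 members, against 21.2% of all tested genes, with 7 higher against 11.4% and 5 lower against 9.79%. The libraries of the groups did not overlap for 5 members, against 7.69% of all tested genes, with 2 higher against 4.02% and 3 lower against 3.66%. With DESeq2 the members past an adjusted p of 0.05 were 7, against 7.26% of all tested genes, namely the 3 above with Hnf4a, Ppara, Nr2f2 and Nr2f6. The median log2 fold change (log2FC, HFDfri minus HFDfre) of the tested members was 0.02, and that of all tested genes was -0.01. A term for the share of the ribosomal RNA-like locus left 0 members past the threshold with edgeR, against 38 of all 14220 tested genes. With this term 11 members had an unadjusted p under 0.05, against 19.0% of all tested genes. Scaling by library totals left 1 member, Nr2c2, against 76 of all tested genes.

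**Figure D1:**
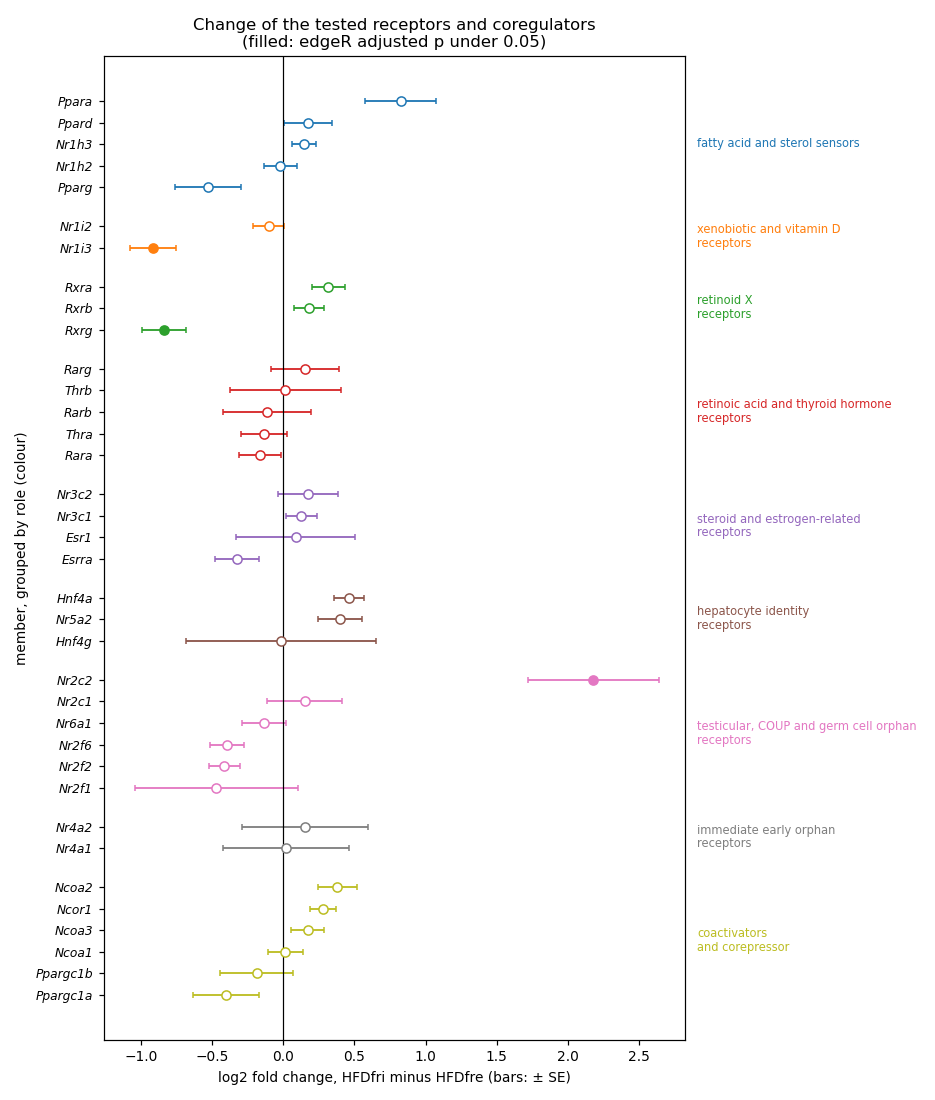
The log2FC of each of the 36 tested members is plotted on the horizontal axis (HFDfri minus HFDfre, bars ± SE from edgeR), grouped by role and colour, with filled points for an adjusted p under 0.05. The filled points are Nr1i3 at -0.92, Rxrg at -0.84 and Nr2c2 at 2.18, and most of the other members lie within 0.5 of 0.

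The sequences just before the transcription start are shown for the 3 genes past the threshold, since the elements bound by many members of this superfamily are built from the hexamer AGGTCA, and E-boxes are bound by factors of the clock. The stretches are the 250 bases upstream of each start in RefSeq (GRCm38.p6), written 5′ to 3′ on the gene's strand. All 3 genes lie on the plus strand, and Rxrg has 2 starts. Capitals mark a hexamer (AGGTCA) or an E-box (CACGTG) on either strand.
Nr1i3, chr1:171213720-171213969: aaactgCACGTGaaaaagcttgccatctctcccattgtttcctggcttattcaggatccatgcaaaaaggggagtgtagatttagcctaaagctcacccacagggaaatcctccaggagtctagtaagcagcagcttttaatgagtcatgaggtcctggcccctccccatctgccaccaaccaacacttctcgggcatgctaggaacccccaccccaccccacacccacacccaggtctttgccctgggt
Rxrg, first start, chr1:167598112-167598361: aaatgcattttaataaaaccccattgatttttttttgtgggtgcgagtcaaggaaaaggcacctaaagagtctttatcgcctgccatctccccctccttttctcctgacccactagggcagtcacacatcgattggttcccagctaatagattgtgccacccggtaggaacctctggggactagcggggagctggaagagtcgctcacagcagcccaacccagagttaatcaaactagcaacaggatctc
Rxrg, second start, chr1:167618015-167618264: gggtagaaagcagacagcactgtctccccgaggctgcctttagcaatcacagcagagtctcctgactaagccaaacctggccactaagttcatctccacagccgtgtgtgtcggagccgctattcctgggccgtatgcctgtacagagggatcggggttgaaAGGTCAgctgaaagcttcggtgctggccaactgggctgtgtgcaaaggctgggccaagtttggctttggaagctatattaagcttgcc
Nr2c2, chr6:92092183-92092432: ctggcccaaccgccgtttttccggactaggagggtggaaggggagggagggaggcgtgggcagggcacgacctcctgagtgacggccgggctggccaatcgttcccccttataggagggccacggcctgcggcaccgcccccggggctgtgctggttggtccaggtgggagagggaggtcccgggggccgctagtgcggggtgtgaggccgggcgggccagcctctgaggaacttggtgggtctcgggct

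The 4 windows hold no annotated exon base in GENCODE M21. The Nr1i3 window has 1 E-box, which begins 244 bases before the start. The Nr2c2 window and the second Rxrg window lie inside the genes as GENCODE places their starts. The second Rxrg window has 1 AGGTCA hexamer, 88 bases before its start, and the first has neither. The Nr2c2 window has neither element and is the richest in G and C, at 71.2%, against 49.2% to 55.2% in the other 3. The AGGTCA hexamer was found on either strand in 13.8% of the 27025 windows of this length, taking the first start of each gene, and in those of 4 of the 32 members with a RefSeq entry (Nr5a2, Pparg, Thrb and Rarg). The E-box was found in 6.05% of the windows and in 1 of the 32 members, Nr1i3. The direct repeat of this hexamer with any 1 base between the copies was found in 0.037% and the cAMP response element, TGACGTCA, in 1.62%, both in 0 of the 32 members. A match describes these letters only.

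The levels of the members spanned several orders of magnitude when they were compared as CPM per kilobase of exon. Over the 9 libraries 6 members exceeded 10 CPM per kilobase, 18 lay between 1 and 10, 10 lay between 0.1 and 1, and 4 were under 0.1. Nr1i3 had the highest mean at 92.3 ± 33.3 CPM per kilobase, followed by Hnf4a at 79.0 ± 15.6, Rxra at 43.4 ± 7.16, Nr1h3 (LXRα) at 31.6 ± 2.51, Nr1i2 (PXR) at 26.5 ± 3.22 and Nr2f6 (EAR2) at 10.5 ± 1.94 (SD over 9 libraries). Only 2 steps in the whole order separated neighbours in every library without overlap of their ranges, from Hnf4a to Rxra and from Nr1i2 to Nr2f6. Nr1i3 exceeded Hnf4a in 5 of the 9 libraries, and the ranges of all other neighbours overlapped. The order of the leading pair differed between the groups, with Nr1i3 at 116.7 ± 20.9 and Hnf4a at 67.7 ± 4.61 CPM per kilobase in HFDfre, and Nr1i3 at 61.9 ± 12.5 and Hnf4a at 93.2 ± 11.9 in HFDfri. Using the longest transcript in place of all exons raised the level of 12 members by over 1.5 times, at most 2.16 times for Esr1, and left the leading 5 in place.

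**Figure D2:**
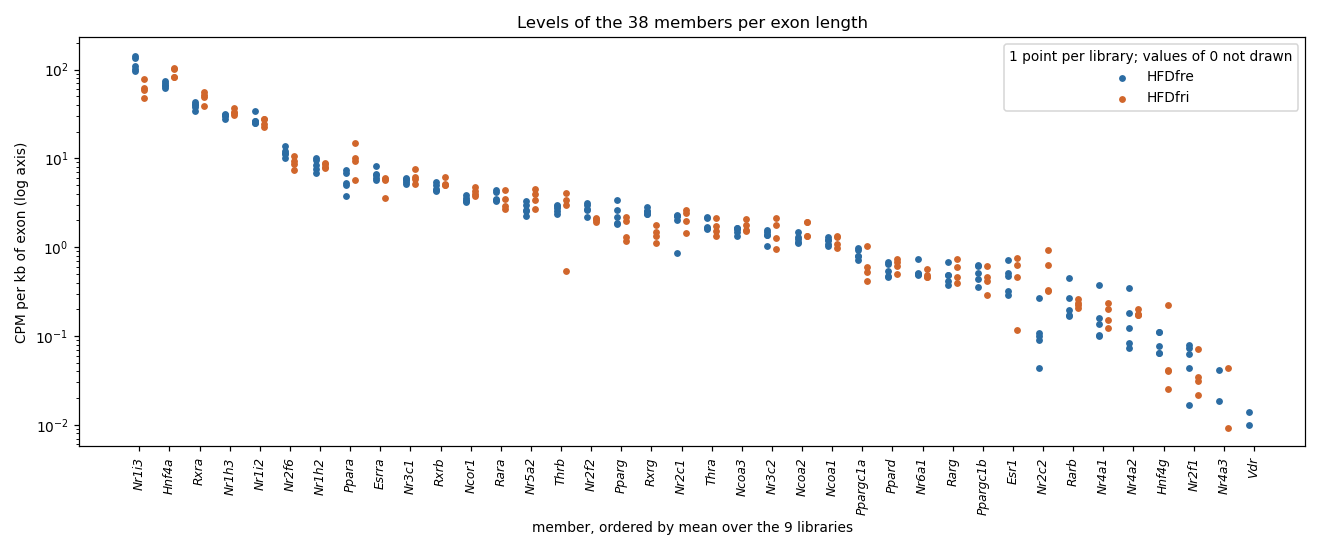
The level of each of the 38 members in CPM per kilobase of exon is plotted on a log axis for each library, blue for HFDfre and orange for HFDfri, in the order of the mean over the 9 libraries, with values of 0 not drawn. The leading 5 members lie above 20 in every library, and 1 HFDfri library lies far below the rest for Thrb. The groups part without overlap for Nr1i3, Hnf4a, Nr2f2, Rxrg and Nr2c2.

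At the other end of the order, Nr2f1 had 0.05 CPM per kilobase and Hnf4g 0.08. Nr4a3 and Vdr, the vitamin D receptor, were too low to be tested. Nr4a3 had 0 counts in 5 libraries and 4 to 19 in the other four. Vdr had 5 counts in HFDfre 2, 4 counts in HFDfre 4 and 0 elsewhere, where a count of 0 allows up to 3.

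The fatty acid and sterol sensors did not pass the adjusted threshold with edgeR. Ppara (PPARα) was measured at 20.4, 28.4, 19.1, 26.2 and 14.6 CPM in the HFDfre libraries and at 21.8, 38.9, 57.1 and 36.0 CPM in the HFDfri libraries. All HFDfri libraries but the first were above every HFDfre library, and the third was the highest. This gave a log2FC of 0.82 ± 0.25 (SE), and the adjusted p was 0.108 by edgeR and 0.0165 by DESeq2. Without HFDfri 1 the log2FC was 1.01 with an edgeR adjusted p of 0.0233, and without HFDfri 3 it was 0.57 with an edgeR adjusted p of 0.313. Leaving out HFDfri 1, here and for the members below, raised the genes past the threshold from 150 of 14220 to 1106 of 14463.

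Pparg (PPARγ), the receptor best known from adipocytes, had 7.84, 5.53, 6.49, 9.91 and 5.39 CPM in HFDfre and 3.81, 5.75, 3.48 and 6.43 CPM in HFDfri. The groups overlapped, with the highest value in HFDfre 4. Its log2FC came to -0.53 ± 0.23 (edgeR adjusted p = 0.219, unadjusted p = 0.0416). The adipocyte markers summed to 2238 ± 146 CPM in HFDfre, from 2110 to 2481, and to 1803 ± 354 CPM in HFDfri, from 1541 to 2326 (exact permutation p = 0.0714, adjusted 0.321). Nearly all of this sum was Car3, a carbonic anhydrase gene that hepatocytes also express, with 2182 ± 148 and 1766 ± 357 CPM, so that the sum describes Car3 rather than the list. The 4 tested of the 8 adipocyte markers had log2FC values below 0, none with an edgeR adjusted p under 0.05, and the defining markers Adipoq and Plin1 were at 0 counts in every library. The part of adipocyte RNA in the Pparg values was not tested, and in bulk liver fewer cells of a type and less RNA per cell cannot be told apart. Ppard had a log2FC of 0.17 ± 0.17.

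Within the PPAR family the mean share of Ppara per kilobase was 65.4% ± 5.12 in HFDfre and 80.3% ± 5.71 in HFDfri, and that of Pparg was 27.9% ± 5.24 and 14.4% ± 5.02 (SD). Neither share overlapped between the groups, but shares of a family add up to the whole, so they are not independent of each other. Of the other families, shares also parted for RXR and for CAR with PXR. All shares overlapped for LXR, HNF4, COUP-TF, p160, PGC-1, NR4A and TR2 with TR4. The same held for the retinoic acid, the thyroid hormone, and the glucocorticoid and mineralocorticoid receptors. How often such shares part for other genes was not computed. These shares are given without a test. The Ppara share was 61.7% to 74.3% in the HFDfre libraries and 76.1% to 88.6% in the HFDfri libraries.

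Nr1h3 (LXRα) varied little, with 75.3, 77.0, 70.2, 80.1 and 77.2 CPM in HFDfre and 78.0, 80.9, 84.5 and 92.6 CPM in HFDfri. The HFDfri libraries were at the upper end of the HFDfre range or above it. The fitted log2FC was 0.15 ± 0.08 (edgeR adjusted p = 0.333). Nr1h2 (LXRβ), its ubiquitous relative, had a log2FC of -0.02 ± 0.12, and the split of the LXR family between them stayed within the spread of the libraries, with Nr1h3 at 78.1% ± 2.65 in HFDfre and 79.9% ± 1.66 in HFDfri.

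**Figure D3:**
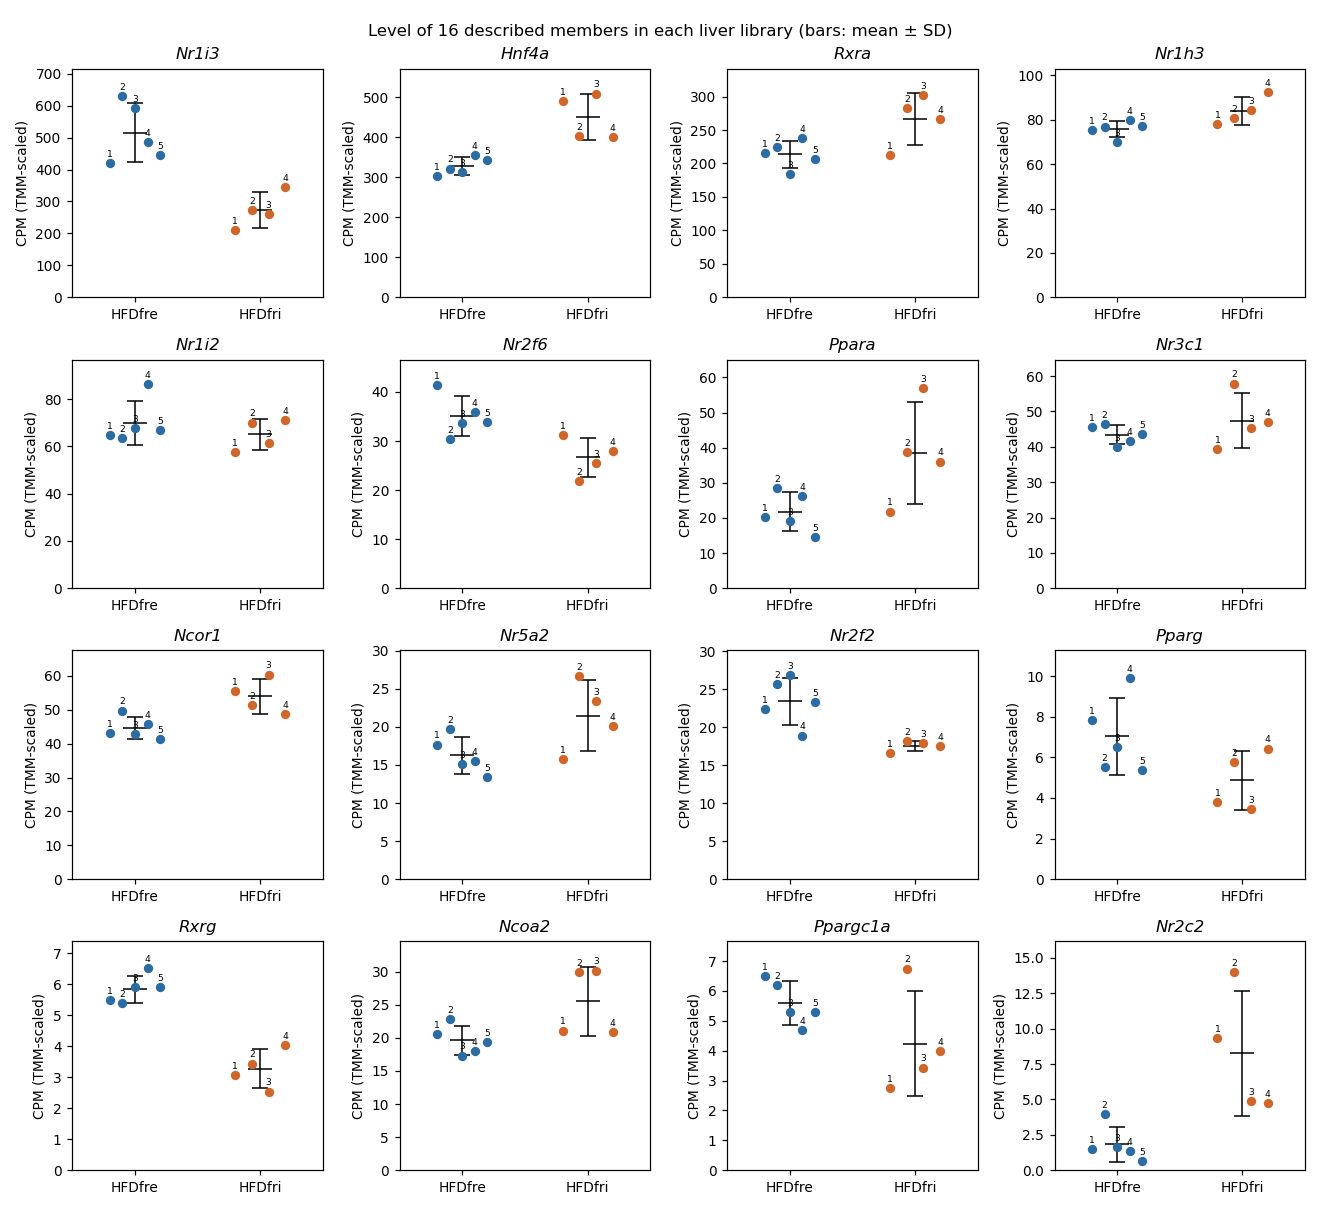
The level of the 16 members described library by library is plotted in CPM with an axis from 0, blue for the 5 HFDfre and orange for the 4 HFDfri libraries, with replicate numbers beside the points and bars for mean ± SD. The groups are apart without overlap for Nr1i3, Hnf4a, Nr2f2, Rxrg and Nr2c2.

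Of the xenobiotic sensors, CAR was lower and PXR was not called. Nr1i3 (ENSMUSG00000005677, GRCm38 chromosome 1, 171213970 to 171220701, plus strand) was measured at 419.9, 630.1, 593, 486 and 446 CPM in HFDfre and at 212, 273, 262 and 346 CPM in HFDfri. Every HFDfri library was below every HFDfre library, with means of 515 ± 92.2 and 273 ± 55.4 CPM (SD). With edgeR the log2FC was -0.92 ± 0.16, a 1.89-fold lower level in HFDfri, with an edgeR adjusted p of 0.0333. It kept its direction without any 1 library, from -1.05 to -0.82, but the edgeR adjusted p was over 0.05 without HFDfre 2, HFDfre 3, HFDfre 4, HFDfre 5 or HFDfri 3, where it ran from 0.0509 to 0.0965. Of the exons of Nr1i3, 74.9% are overlapped by exons of Tomm40l on the opposite strand, and whether the counting used strand is not stated. Tomm40l itself had 8.74 ± 2.84 and 8.83 ± 0.84 CPM, and the sum of both genes had a log2FC of -0.89 ± 0.16 (edgeR adjusted p = 0.0354). Nearly all of this sum is Nr1i3, so it cannot show how reads of the shared exons were assigned.

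Nr1i2 (PXR) had 64.7, 63.5, 67.8, 86.6 and 67.0 CPM in HFDfre and 57.7, 70.1, 61.5 and 71.1 CPM in HFDfri. The groups overlapped, with HFDfre 4 above the other libraries. The log2FC was -0.10 ± 0.11 (edgeR adjusted p = 0.634). Of the summed level per kilobase of CAR and PXR, CAR made up 76.4% to 85.2% in the HFDfre libraries and 68.0% to 73.8% in the HFDfri libraries, which did not overlap.

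The retinoid X receptors, which are the obligate partners of PPAR, LXR, CAR and PXR, differed in direction, and only Rxrg passed the threshold. Rxrg (ENSMUSG00000015843, GRCm38 chromosome 1, 167598384 to 167639623, plus strand), the least abundant of the 3, had 5.49, 5.40, 5.90, 6.52 and 5.91 CPM in HFDfre and 3.08, 3.44, 2.54 and 4.05 CPM in HFDfri. The HFDfre libraries were tightly grouped and all above the HFDfri libraries. This gave a log2FC of -0.84 ± 0.15, a 1.78-fold lower level, with an edgeR adjusted p of 0.0354. Without any 1 library it ran from -0.95 to -0.73, and the edgeR adjusted p was over 0.05, from 0.0509 to 0.0953, without any 1 of the HFDfre libraries or without HFDfri 3.

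Rxra had 216, 225, 184, 238 and 206 CPM in HFDfre and 212, 282, 303 and 267 CPM in HFDfri. All HFDfri libraries but the first were above HFDfre. Its log2FC came to 0.32 ± 0.12 (edgeR adjusted p = 0.159), and without HFDfri 1 it was 0.40 with an edgeR adjusted p of 0.0323. Rxrb had a log2FC of 0.18 ± 0.10 (edgeR adjusted p = 0.345). Rxrg made up 5.51% ± 0.55 of the RXR family per kilobase in HFDfre and 2.61% ± 0.62 in HFDfri, and Rxra 84.3% ± 1.19 and 87.7% ± 1.25, both without overlap between the groups.

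None of the retinoic acid and thyroid hormone receptors had an unadjusted p under 0.05 with edgeR, and the smallest of the 5 was 0.298. Their log2FC values ran from -0.16 for Rara to 0.15 for Rarg. Thrb, the main thyroid hormone receptor of hepatocytes, had 3.99 CPM in HFDfri 1 and 22.2 to 29.8 CPM in the other HFDfri libraries, against 17.6 to 22.0 CPM in HFDfre. The log2FC of Thrb was thus 0.01 ± 0.39 over all libraries and 0.34 without HFDfri 1, with an edgeR adjusted p over 0.05 in every fit.

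Of the steroid and estrogen-related receptors, Nr3c1, the glucocorticoid receptor (GR), had 45.5, 46.4, 40.0, 41.6 and 43.7 CPM in HFDfre and 39.4, 57.9, 45.2 and 47.0 CPM in HFDfri. The groups overlapped, and HFDfri 2 was the highest. The fitted log2FC was 0.13 ± 0.11 (edgeR adjusted p = 0.541). Nr3c2 (mineralocorticoid receptor) was at 0.17 ± 0.21, Esr1 (estrogen receptor α) at 0.09 ± 0.42 and Esrra (ERRα, a partner of PGC-1α) at -0.33 ± 0.16 on the log2 scale, and their edgeR adjusted p-values were 0.253 or more.

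Of the receptors of hepatocyte identity, Hnf4a and Nr5a2 had higher means in HFDfri but did not pass the adjusted test with edgeR at its default dispersion. Hnf4a (ENSMUSG00000017950, GRCm38 chromosome 2, 163506808 to 163572910, plus strand) had 302, 321, 312, 356 and 343 CPM in HFDfre and 489, 402, 509 and 399.6 CPM in HFDfri. Every HFDfri library was above every HFDfre library. The log2FC was 0.46 ± 0.10, with an adjusted p of 0.0566 by edgeR, of 0.0474 by edgeR with robust dispersion and of 0.00213 by DESeq2. Without HFDfri 1 or HFDfri 2 the edgeR adjusted p was 0.0379 and 0.0475, and without HFDfri 3 it was 0.168.

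Nr5a2 (LRH-1), a regulator of bile acid and cholesterol genes, had 17.7, 19.7, 15.1, 15.5 and 13.4 CPM in HFDfre and 15.8, 26.6, 23.4 and 20.1 CPM in HFDfri. As for Rxra and Ppara, only HFDfri 1 lay within the HFDfre range. The log2FC was 0.40 ± 0.16 (edgeR adjusted p = 0.174), and 0.51 without HFDfri 1 (edgeR adjusted p = 0.0427). Hnf4g was near the detection limit, at 0.07 to 0.59 CPM.

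Among the orphan receptors, Nr2c2 (ENSMUSG00000005893, GRCm38 chromosome 6, 92091390 to 92174294, plus strand) had the largest fitted change of the members. It was measured at 1.502, 3.97, 1.62, 1.36 and 0.66 CPM in HFDfre and at 9.35, 14.0, 4.86 and 4.77 CPM in HFDfri. The groups did not overlap, but the libraries of each group were widely spread, with means of 1.82 ± 1.26 and 8.25 ± 4.40 CPM. This gave a log2FC of 2.18 ± 0.46 (edgeR adjusted p = 0.0486). The edgeR adjusted p was 0.0688 without a filter on low counts and 0.0755 with robust dispersion. The log2FC ran from 1.79 to 2.68 without any 1 library, and the edgeR adjusted p was over 0.05, up to 0.133, in 7 of these 9 fits, the exceptions being those without HFDfre 2 and without HFDfri 1.

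The exons of Nr2c2 share 4590 bases, 30.7% of their length, with exons of Mrps25 on the opposite strand, a gene of the mitochondrial ribosome. The difference of Mrps25 had the opposite sign, with 28.1 ± 3.45 CPM in HFDfre and 20.5 ± 3.91 CPM in HFDfri (log2FC -0.46 ± 0.14, edgeR adjusted p = 0.113). Summed, the pair had 33.4, 30.6, 28.8, 24.9 and 31.7 CPM in HFDfre and 30.5, 29.0, 26.4 and 28.9 CPM in HFDfri. The sums overlapped fully, and their log2FC was -0.06 ± 0.10 (edgeR adjusted p = 0.783). The higher level of Nr2c2 was seen in the counts as they were split between the genes of this locus, and not in their sum. Most of the sum is Mrps25, so it cannot show how reads of the shared exons were assigned. The part of this assignment in the Nr2c2 values was not tested.

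**Figure D4:**
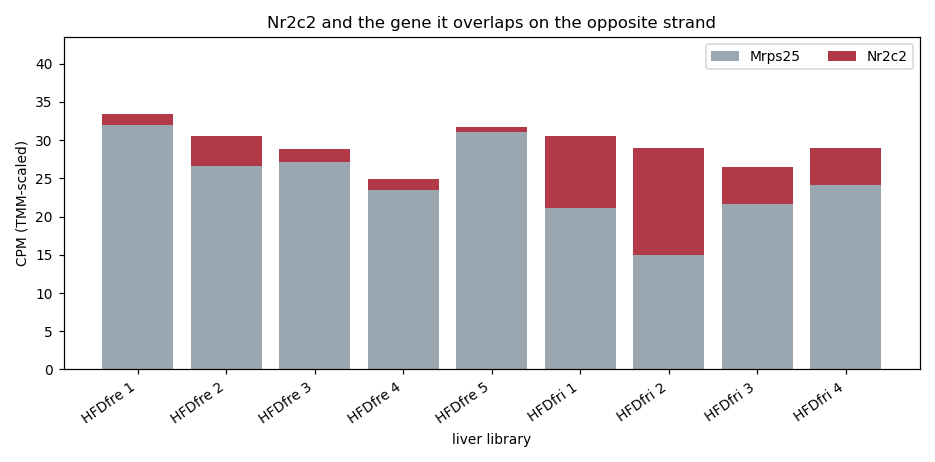
The level of Nr2c2 (red) stacked on that of Mrps25 (grey), the gene on the opposite strand that shares exon bases with it, is plotted in CPM for each library with an axis from 0. The red part is larger in the 4 HFDfri libraries while the height of the whole bar stays between 24.9 and 33.4 CPM in all 9.

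Nr2f2 (COUP-TFII) had 22.4, 25.6, 26.9, 18.9 and 23.3 CPM in HFDfre and 16.7, 18.1, 18.0 and 17.6 CPM in HFDfri. Every HFDfri library was below HFDfre, although HFDfre 4 was close. Its log2FC came to -0.41 ± 0.11, with an adjusted p of 0.0806 by edgeR and of 0.0172 by DESeq2. COUP-TFII is best known from endothelial and mesenchymal cells. The 12 endothelial markers summed to 153 to 195 CPM in HFDfre and 131 to 185 CPM in HFDfri (exact permutation p = 0.190, adjusted 0.386), 9 of the 12 had a log2FC below 0, and 0 were at 0 in any library. The 12 stellate cell markers summed to 142 to 222 CPM and 117 to 206 CPM, with 6 of the 12 below 0. The part of these cells in the Nr2f2 values was not tested.

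Nr2f6 (EAR2) had 41.4, 30.4, 33.7, 35.9 and 33.9 CPM in HFDfre and 31.3, 21.9, 25.5 and 28.0 CPM in HFDfri. The groups overlapped by HFDfri 1 alone. The fitted log2FC was -0.39 ± 0.12, with an adjusted p of 0.110 by edgeR and of 0.0472 by DESeq2, and without HFDfri 1 it was -0.49 with an edgeR adjusted p of 0.0338. Its exons share 54.4% of their length with Ocel1 on the opposite strand, and the sum of both genes had a log2FC of -0.33 ± 0.09 (edgeR adjusted p = 0.0878) with no overlap between the groups.

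The remaining orphan receptors were not called. Nr2c1 (TR2), Nr6a1 (GCNF) and Nr2f1 (COUP-TFI) had log2FC values of 0.15 ± 0.27, -0.14 ± 0.15 and -0.47 ± 0.57. The immediate early receptors Nr4a1 and Nr4a2, which respond to fasting and cAMP signals, had 0.35 to 1.33 CPM and 0.30 to 1.41 CPM over all libraries, with log2FC values of 0.02 ± 0.44 and 0.15 ± 0.44.

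No coregulator passed the adjusted threshold. Ncor1, the corepressor that holds histone deacetylase at receptors without an activating ligand, had 43.2, 49.8, 42.7, 45.8 and 41.4 CPM in HFDfre and 55.5, 51.4, 60.4 and 48.7 CPM in HFDfri. The groups overlapped by HFDfre 2 and HFDfri 4 alone. With edgeR the log2FC was 0.28 ± 0.09 (edgeR adjusted p = 0.124). Ncoa2, a coactivator of the p160 family, had 20.6, 22.9, 17.3, 18.1 and 19.3 CPM in HFDfre and 21.1, 30.0, 30.2 and 20.9 CPM in HFDfri. The HFDfri libraries fell into a higher and a lower pair. The log2FC was 0.38 ± 0.14 (edgeR adjusted p = 0.156).

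Ppargc1a (PGC-1α), the coactivator of gluconeogenic and mitochondrial genes, had 6.49, 6.20, 5.29, 4.70 and 5.29 CPM in HFDfre and 2.76, 6.75, 3.43 and 3.98 CPM in HFDfri. All HFDfri libraries but the second were below every HFDfre library, and the second was above them all. This gave a log2FC of -0.40 ± 0.23 (edgeR adjusted p = 0.351). Leaving out HFDfri 2 moved it to -0.72, with an edgeR adjusted p of 0.0691. The other coactivators Ncoa1, Ncoa3 and Ppargc1b had log2FC values of 0.02 ± 0.13, 0.17 ± 0.12 and -0.19 ± 0.26.

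Among the libraries, HFDfri 1 held the lowest value of 9 of the 36 tested members, against 17.3% of all tested genes, and HFDfri 3 held the highest value of 10, against 17.3% as well. HFDfre 5 held the lowest value of 7, against 7.79% of all tested genes.

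The rest of the superfamily and of the coregulators gave no call with edgeR. Of 17 further receptors, which include those of the clock and of bile acids, 10 were tested, and 0 had an edgeR adjusted p under 0.05. At an unadjusted p under 0.05, 1 was higher, against 11.4% of all tested genes, namely Nr0b2 (SHP), named after its values were seen. Its log2FC was 0.60 ± 0.19, with an adjusted p of 0.117 by edgeR and of 0.0355 by DESeq2. Of 25 further coregulators, 0 had an edgeR adjusted p under 0.05. At an unadjusted p under 0.05 4 of them were higher and 1 was lower, which is 20.0% against 21.2% of all tested genes. The median log2FC values were -0.26 and 0.12.

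Genes known as targets of the receptors were compared from lists written from general knowledge, which share some genes such as Pck1, Klf9 and Cyp7a1. Of the 35 PPARα targets, 4 fell at an edgeR adjusted p under 0.05, against 0.556% of all tested genes, and 0 rose. At an unadjusted p under 0.05 12 were lower, against 9.79%, and 2 higher, against 11.4%, with a median log2FC of -0.20 against -0.01 for all tested genes. The microsomal ω-hydroxylase gene Cyp4a14 had 214, 389, 331, 730.5 and 435 CPM in HFDfre and 125.9, 109, 209 and 96.8 CPM in HFDfri. Every HFDfri library was below HFDfre, although HFDfri 3 and HFDfre 1 were close. Its log2FC came to -1.63 ± 0.33 (edgeR adjusted p = 0.0425). Cyp4a10, its close relative, fell by 0.86 ± 0.17 on the log2 scale (edgeR adjusted p = 0.0396), and both are members of a family of similar copies whose reads can be split between them.

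The acyl-CoA thioesterase genes Acot3 and Acot4 fell by 2.45 ± 0.30 and 1.05 ± 0.16 on the log2 scale (edgeR adjusted p = 0.0117 and 0.0293), and they too are close copies. Acot3 had 20.7 to 50.4 CPM in HFDfre and 3.92 to 8.05 CPM in HFDfri, and it passed the threshold in each of the 9 fits without 1 library. Acot4 lost it without HFDfre 3, HFDfre 5 or HFDfri 4, with an edgeR adjusted p of up to 0.0705. Cyp4a10 kept it only without HFDfri 1, and Cyp4a14 only without HFDfre 1 or HFDfri 1, and otherwise their edgeR adjusted p ran up to 0.0992. These 4 targets were lower in HFDfri, the group with the higher mean of Ppara mRNA, and the relation between them was not tested.

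Of the 27 tested targets of CAR and PXR, 1 fell at an edgeR adjusted p under 0.05, and at an unadjusted p under 0.05 8 were lower and 2 higher, with a median log2FC of -0.16. The shares of all tested genes were 0.556% lower at the adjusted p, and 9.79% lower and 11.4% higher at the unadjusted p. The one past the threshold was the glutathione S-transferase gene Gsta2, with 7.21 to 14.1 CPM in HFDfre and 3.47 to 5.19 CPM in HFDfri (log2FC -1.27 ± 0.20, edgeR adjusted p = 0.0293). It lost the threshold without HFDfre 3, HFDfre 5, HFDfri 3 or HFDfri 4, with an edgeR adjusted p of up to 0.0887. Cyp3a11, the classical PXR target, had 684 ± 127 and 454 ± 97.5 CPM (log2FC -0.59 ± 0.17, edgeR adjusted p = 0.0949). Cyp2b10, the classical CAR target, was low in all libraries, at 1.69 ± 1.23 and 0.82 ± 0.82 CPM, and its log2FC of -1.03 ± 0.70 was within the spread (edgeR adjusted p = 0.425).

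The target lists of the other receptors had 0 genes past an edgeR adjusted p of 0.05, and their counts at an unadjusted p under 0.05 stand against 11.4% higher and 9.79% lower among all tested genes. Of 17 LXR targets, 2 were higher and 2 lower at an unadjusted p under 0.05, and the cholesterol exporter gene Abca1 had 67.2 to 84.5 CPM in HFDfre and 89.4 to 121 CPM in HFDfri, without overlap (log2FC 0.49 ± 0.11, edgeR adjusted p = 0.0566). Of 20 GR targets, 4 were higher and 0 lower at an unadjusted p under 0.05, which is 20.0% of them against 21.2% of all tested genes. A log2FC above 0 was found for 18 of the 20, with a median of 0.28, and for 6986 of all 14220 tested genes. The signs of several of these 18 turned when single libraries were left out. The GR target Tsc22d3 (GILZ) had a log2FC of 0.18 ± 0.35 and the direction turned to -0.04 without HFDfri 3.

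Of 21 HNF4α targets, 4 were higher and 6 lower at an unadjusted p under 0.05, which is 47.6% of them against 21.2% of all tested genes. Their median log2FC was -0.01, and Apoa4 had a log2FC of -0.86 ± 0.35 (edgeR adjusted p = 0.196). The 14 thyroid hormone targets included 1 higher at an unadjusted p under 0.05 and had a median of 0.13, with the deiodinase gene Dio1 at -0.03 ± 0.17. The 8 tested targets of retinoic acid included 1 higher and 2 lower with a median of 0.06, and Cyp26a1, which degrades retinoic acid, was at 0.05 ± 0.33. The 17 targets of PGC-1α included 2 higher and 3 lower with a median of -0.04, and Pck1, the enzyme that commits carbon to gluconeogenesis, was at 0.06 ± 0.20. The signs of Dio1, Cyp26a1 and Pck1 turned when single libraries were left out.

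Immediate early genes and clock genes were counted beside these lists, since both can move with the hour and the handling at collection. Of the 18 tested immediate early genes, 0 passed an edgeR adjusted p of 0.05. At an unadjusted p under 0.05 3 were higher and 1 lower, which is 22.2% of them against 21.2% of all tested genes. By DESeq2, 2 of the 18 were higher and 1 was lower at an adjusted p under 0.05, against 7.26% of all tested genes. Fos was at 0.44 ± 0.47 on the log2 scale. Of 19 clock genes, 1 fell past the edgeR adjusted threshold, against 0.556% of all tested genes, and 0 rose. At an unadjusted p under 0.05 3 were higher and 2 lower, which is 26.3% against 21.2%. With DESeq2 2 were higher and 2 lower at an adjusted p under 0.05, against 7.26% of all tested genes. The gene that fell with edgeR was Dbp, an output gene of the clock, with 71.0 to 98.9 CPM in HFDfre and 41.0 to 54.9 CPM in HFDfri (log2FC -0.80 ± 0.13, edgeR adjusted p = 0.0293). Its edgeR adjusted p was over 0.05, up to 0.0887, without HFDfre 3, HFDfre 5, HFDfri 3 or HFDfri 4. The part of the hour of collection in the values of the receptors was not tested.

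**Figure D5:**
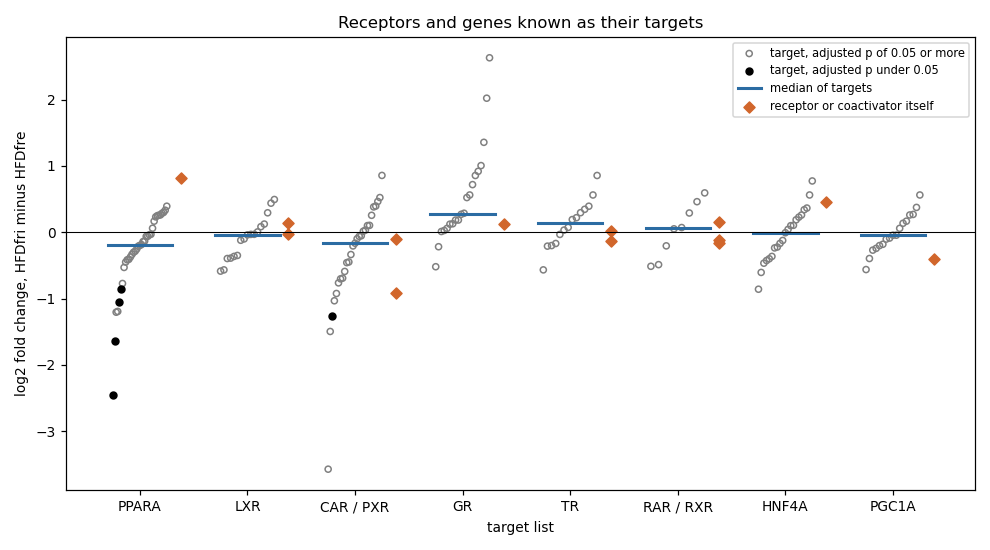
The log2FC (HFDfri minus HFDfre) of each tested target is plotted as a circle for 8 target lists, filled for an edgeR adjusted p under 0.05, with a blue line at the median of the list and orange diamonds for the receptor or coactivator itself. The filled circles are 4 PPARα targets and 1 target of CAR and PXR, all below 0, while the Ppara diamond lies at 0.82 and the Nr1i3 diamond at -0.92.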

How the data were processed

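The liver libraries (5 HFDfre, 4 HFDfri) were grouped by their labels, which do not pair animals. Separate mice per library are given by the study's supplement as biological repeats. Per the submitters' processing notes, reads were aligned with HISAT2 to mm10 and quantified with StringTie. Neither an annotation nor a strand setting is given in the sources used here, and the library kit is named differently in the labels (NEBNext Ultra) and in the study's methods (KAPA RNA HyperPrep). The authors deposited estimated counts per gene, which are whole numbers without any scaling across samples. Small counts cluster at multiples of 4 (4 in 3990 gene and library pairs, 3 in 2172 and 5 in 1840), so counting error is modelled only approximately. The cause was not tested, and counts divided by 4 were one alternative.

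Genes were kept with filterByExpr by group and tested in edgeR 4.0.16 by its quasi-likelihood method (R 4.3.3, TMM, no covariate, log2 CPM with a prior count of 2), with Benjamini-Hochberg adjustment over 14220 genes. The standard error is the fold change divided by the square root of F. The study used DESeq2, run here as version 1.42.0, and limma-voom was of limma 3.58.1. Single measures were tested by two-sided exact permutation over the libraries, where 0.00794 is the smallest p. Coordinates, exon lengths and overlaps came from GENCODE M21, which holds 96.5% of the identifiers. On simulated data with known changes in 13959 genes, edgeR recovered 64 of 98 genes changed by log2 1 and 87 of 94 changed by log2 2, with 4 false calls.

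The members and all lists were chosen with earlier results of these data known. Members were described library by library if they had an adjusted or unadjusted p under 0.05, no overlap between groups, or were Ppara, Nr1h3, Nr1i2, Nr1i3, Hnf4a, Rxra, Nr3c1 or Ppargc1a, and targets were named if past the adjusted threshold or as the lead target of their list. Alternatives were the other tools, scalings and filters, robust dispersion, a term for the ribosomal RNA-like locus, the replicate number as a block, and leaving out each library. Sums of overlapping genes were added after the data were seen. Protein sequences were not used here. The result for 1 further receptor is not reported here.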

Additional observations from a re-analysis of the deposited data

Results flagged for a closer look

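In 6 of 90 sets of values (2 groups for each measure) 1 library stood far from the rest of its group by Dixon's 95% critical value, where chance gives about 4.5. On the log2 CPM scale, Nr1i2 was 6.44 in HFDfre 4, against 5.99 to 6.08 in the other HFDfre libraries. Nr2c1 was 1.98 in HFDfre 2, against 3.22 to 3.41, and Nr6a1 was 2.99 in the same library, against 2.42 to 2.46. In HFDfri 1, Thrb was 2.01, against 4.48 to 4.90 in the other HFDfri libraries, and Esrra was 3.99, against 4.65 to 4.72. Rxrb was 4.61 in HFDfri 3, against 4.33 to 4.36.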

How the results depend on the processing

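The 3 members past the edgeR adjusted threshold became 7 with DESeq2, 1 with library totals, 2 without a filter on low counts (Nr2c2 was lost), 0 with the ribosomal RNA-like locus as a term, and 0 to 8 when single libraries were left out (8 without HFDfri 1, 1 without HFDfre 1 or HFDfre 2, 0 without HFDfre 3, HFDfre 4, HFDfre 5 or HFDfri 3). Without HFDfri 1 the genes past the threshold were 1106 of all 14463 tested, against 150 of 14220 with every library. With robust dispersion 3 members passed, with Hnf4a in the place of Nr2c2. The count at an unadjusted p under 0.05 was 8 to 14 in all of the latter fits. These were 22.2% to 38.9% of the tested members, against 13.6% to 25.7% of all tested genes in the same fits. The members without overlap, 5 of 36, were 5 to 11 without single libraries, with 11 without HFDfri 1, 9 without HFDfre 2 and 8 without HFDfri 2. Leaving out a library narrows the range of its group, so that overlap is lost more easily for any gene. The share of all tested genes is not given for these sets, and the 7.69% above is for all libraries. Summed with Mrps25, the counts of Nr2c2 gave a log2FC of -0.058. The median of the LXR targets ran from -0.21, without HFDfri 2, to 0.042. Of the lead targets that no fit called, Pck1 turned to -0.0048 with limma-voom, Dio1 to 0.014 with library totals and Cyp26a1 to -0.18 with the ribosomal locus as a term. Leaving out single libraries, Pck1 ran from -0.075 to 0.25, Dio1 from -0.20 to 0.11, Cyp26a1 from -0.16 to 0.33 and Tsc22d3 from -0.044 to 0.46. The causes were not tested.

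The replicate numbers of the groups did not pair the libraries (correlations of deviations 0.03, 0.08, -0.14 and 0.03, over 0.1 for 0 of the 4 numbers). With the replicate number as a block, a fit that leaves out HFDfre 5, 0 members passed the adjusted threshold with edgeR and 10 had an unadjusted p under 0.05. In that fit 0 of all 14075 genes passed the adjusted threshold, and 18.0% had an unadjusted p under 0.05. Without HFDfre 5 and without a block, 0 members and 6 of 14075 genes passed. All genes past the adjusted threshold were 150, and 1033 with DESeq2, 76 with library totals, 72 without a filter, 38 with the ribosomal locus as a term and 6 to 1106 without single libraries. With 4 and 5 libraries a change of log2 1 was often missed in the simulation, so a member that was not called may still differ. The simulation covered changes of log2 1 and 2 only, with no outlying library and no clustering of small counts. Its recovery is therefore no measure for the smaller changes fitted for most members.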
